A study of Mus musculus with 6 samples.

Results

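Elastin (Eln) and 9 further genes of the elastic fibre were followed in mouse testes carrying a Dazap1 mutation: the fibrillin genes Fbn1 and Fbn2, the fibulin genes Fbln1, Fbln2 and Fbln5, the lysyl oxidase genes Lox and Loxl1, Ltbp1 and Emilin1. The 10 genes were chosen by name, with their differences in this same contrast already known, so their values are given here as a description. A probe set was assigned to a gene where the array annotation gave that gene's symbol alone. This gave 318 of 229581 probe sets and a gene level for 9 of the 10 genes, out of 15207 genes with at least 3 probe sets. Lox had no probe set with its symbol alone and was not analysed here.

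RNA of whole testes was hybridized to Affymetrix exon arrays (Mouse Exon 1.0 ST), which carry several probe sets for most genes, spread over their exons. There were 3 arrays of Fn adult testes and 3 arrays of Wt P21 testes. The Fn adult mice were adults of several months of age, homozygous for the Fn (floxed with Neo) allele of Dazap1. The Wt P21 mice were wild type at Dazap1 and 21 days old, and both groups were of a mixed background of the C57BL/6 and 129 strains. Mice with this allele still make DAZAP1, in an altered form that carries extra residues within its RNA-binding part. Most Fn homozygotes die around birth, and the males that reach adulthood are small and have arrested spermatogenesis, so the Fn adult arrays stand for rare survivors. The study set young Wt testes against the mutant since both have germ cells of like stages. Genotype and age therefore change together between the groups, and their parts in any difference cannot be told apart. In whole testes, fewer cells of a type and less RNA per cell cannot be told apart either.

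Elastic fibres give tissues the ability to recoil. Tropoelastin, the protein of Eln, is secreted, gathered on microfibrils built of fibrillins, and cross-linked into an insoluble core by lysyl oxidases, with fibulins placing the enzymes and the tropoelastin on the scaffold. Most elastin is made while organs grow, and the finished fibre turns over very slowly. In the testis, elastic fibres lie in the outer capsule, in the walls of blood vessels and around the seminiferous tubules.

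All values are on the log2 scale. The gene level is the median over the probe sets of a gene on an array, and differences are Fn adult minus Wt P21. A gene or probe set is said to be called where the adjusted p of the limma fit over all genes, or over all probe sets, was under 0.05. Among all genes, 1227 of 15207 (8.07%) were called higher in Fn adult testes and 139 (0.914%) were called lower. The 3 values of each group did not overlap for 25.6% of genes with Fn adult higher and for 8.96% with Fn adult lower. Among all probe sets, 3.68% were called higher and 0.37% lower, and the groups did not overlap in 21.4% with Fn adult higher and 7.56% with Fn adult lower.

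The Fn adult arrays were somewhat brighter and closer to each other than the Wt P21 arrays. Array medians were 9.10, 9.07 and 9.05 on the Fn adult arrays, against 8.90, 8.76 and 9.05 on the Wt P21 arrays, and lower quartiles lay between 7.36 and 7.56 over all arrays. The median SD of a gene level was 0.11 among Fn adult arrays and 0.21 among Wt P21 arrays. Of all gene calls 89.8% were higher in Fn adult testes, against 64.6% after quantile normalization and 52.7% with each array centred on its median. The median difference over all genes was 0.07 as deposited, -0.05 after quantile normalization and -0.10 after centring. Leaving out Fn adult replicate 1 left 306 genes called higher and 19 lower, and leaving out Wt P21 replicate 3 gave 2455 higher and 366 lower. Ddx4, a germ cell marker looked up after its values were seen, lay between 12.08 and 12.36 on Fn adult arrays and between 12.33 and 12.50 on Wt P21 arrays, far above the array medians.

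The members called higher in Fn adult testes were Fbln1 and Ltbp1, and the sequences just before their start sites are shown because TGF-beta genes, whose signal is carried by SMAD proteins, were followed with them. Each run is the 250 bases before a start site from RefSeq on GRCm38.p6, 5′ to 3′ on the plus strand, with capitals for CAGAC or its reverse complement GTCTG, the core of the SMAD-binding element.
Fbln1, chr15:85205758-85206007: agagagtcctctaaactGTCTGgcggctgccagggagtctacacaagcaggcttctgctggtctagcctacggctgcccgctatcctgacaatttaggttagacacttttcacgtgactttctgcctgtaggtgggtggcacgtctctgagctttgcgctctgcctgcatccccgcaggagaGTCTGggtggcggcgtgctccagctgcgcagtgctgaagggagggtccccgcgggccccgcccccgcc
Ltbp1, first start, chr17:75005279-75005528: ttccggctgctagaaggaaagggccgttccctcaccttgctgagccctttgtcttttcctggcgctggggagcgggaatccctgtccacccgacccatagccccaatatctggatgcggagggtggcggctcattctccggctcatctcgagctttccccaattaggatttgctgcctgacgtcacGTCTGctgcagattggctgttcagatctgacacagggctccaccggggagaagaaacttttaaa
Ltbp1, second start, chr17:75178531-75178780: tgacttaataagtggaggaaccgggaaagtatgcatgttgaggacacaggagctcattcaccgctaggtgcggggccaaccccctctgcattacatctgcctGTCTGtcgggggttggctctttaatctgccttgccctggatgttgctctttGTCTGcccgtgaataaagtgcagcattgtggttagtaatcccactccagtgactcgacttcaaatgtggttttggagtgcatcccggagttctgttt
Fbln1 has a second listed start just upstream, whose window overlaps most of the one shown and holds the same 2 matches. The Ltbp1 windows held 1 and 2. Members that were not called held matches too, with 2 in the Emilin1 window and 2 and 0 in the Fbln5 windows. The Fbln2 and Fbn1 windows held 0. Of all 32851 promoter windows of 250 bases, 42.2% held at least 1 match on either strand, and 6 of 9 windows of 6 member genes did, with the overlapping Fbln1 windows counted as 2. A match of these letters describes the sequence and is no measure of binding. Eln and Loxl1 had no entry among the windows.

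Of the 9 measured genes, 2 were called higher (8.07% of all genes) and 1 was called lower (0.914% of all genes) in Fn adult testes, and 6 were not called. The groups did not overlap for 5 genes, 2 with Fn adult higher (25.6% of all genes) and 3 with Fn adult lower (8.96%). The median of the 9 differences was -0.03, beside 0.07 over all genes. The family held lower values at elastin and the fibrillins and higher values at Fbln1 and Ltbp1, with no shift in common. Since the genes were named with these differences known, nothing is read from these counts against the shares of all genes.

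**Figure D1:**
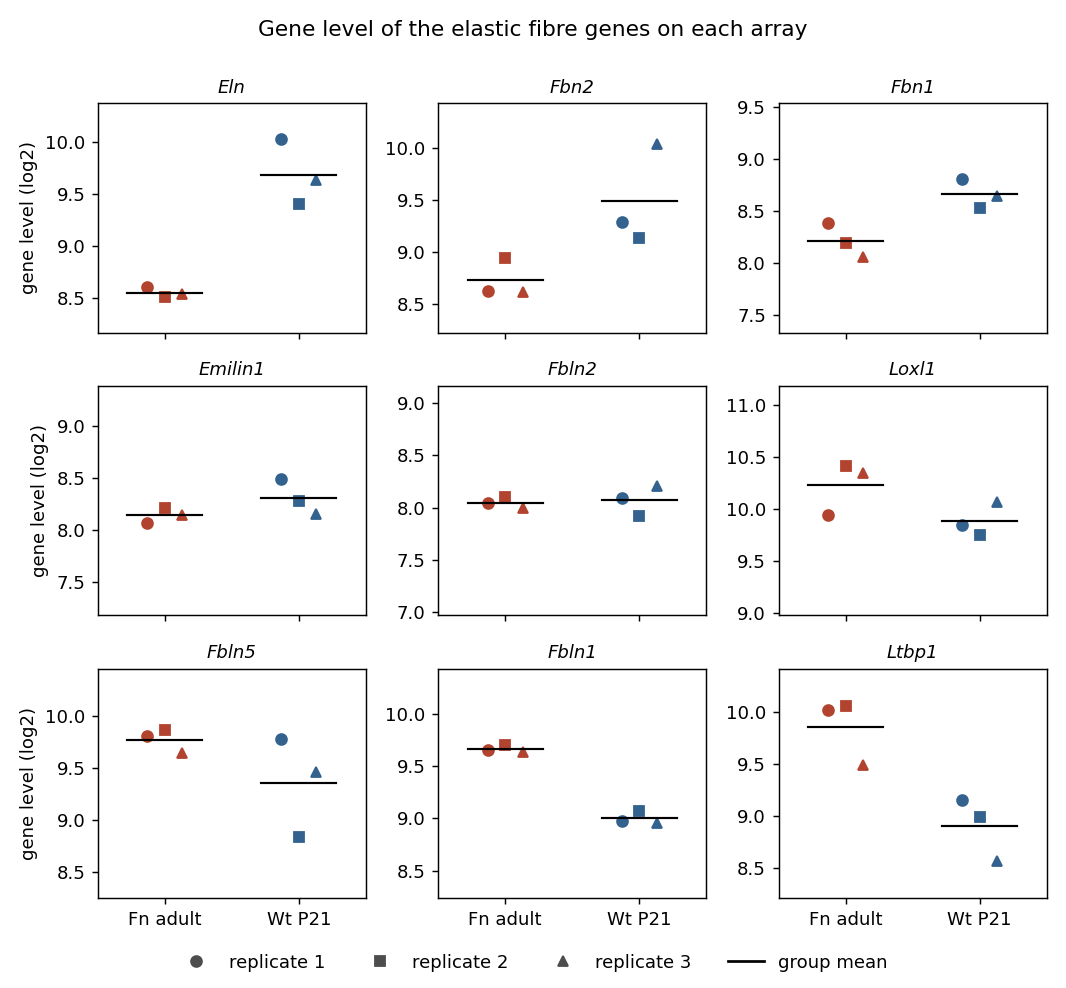
Gene level (log2, y axis) of the 9 measured elastic fibre genes on each of the 3 Fn adult and 3 Wt P21 arrays (x axis), with 1 panel per gene, ordered by difference from most negative to most positive. Points are arrays, lines are group means, and every panel spans the same log2 range. Eln, Fbn2 and Fbn1 lie lower on all Fn adult arrays, and Fbln1 and Ltbp1 lie higher on all of them.

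Eln encodes the elastic core of the fibre and had the most negative gene level difference of the family. Its gene level was 8.61, 8.51 and 8.54 on the Fn adult arrays, against 10.03, 9.40 and 9.63 on the Wt P21 arrays. The Fn adult values lay close together and all below the lowest Wt P21 value. The means were 8.55 ± 0.05 in Fn adult and 9.69 ± 0.32 in Wt P21 testes (SD, n = 3 each), a difference of -1.13 ± 0.17 (SE), or 2.19-fold lower as measured. Only 0.388% of all genes had a more negative difference. Eln stayed called lower under all 12 alternative settings, with differences between -1.30 and -0.93.

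The lower values ran over almost all probe sets of the gene. Of 42 Eln probe sets, 41 had a lower mean in Fn adult testes, 31 had groups that did not overlap with Fn adult lower (7.56% of all probe sets), and 18 were called lower (0.37% of all probe sets). None was called higher. The median of the 42 differences was -0.76, smaller in size than the gene level difference of -1.13. It lay close to the median of -0.74 over the Fbn2 probe sets. The 38 probe sets whose mean lay above 7.36, the lowest lower quartile of the arrays, were all lower, with differences between -2.43 and -0.15. The 1 probe set with a higher Fn adult mean, 5301895, was dim, with values of 5.64, 5.15 and 5.73 on the Fn adult arrays and 5.55, 5.13 and 5.17 on the Wt P21 arrays. Its groups overlapped, and its values lay far under the lower quartiles. Leaving out single arrays moved the number of Eln probe sets called lower to between 7 and 19, with 7 left without Fn adult replicate 1 or without Fn adult replicate 3, 8 without Fn adult replicate 2 and 10 without Wt P21 replicate 1.

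**Figure D2:**
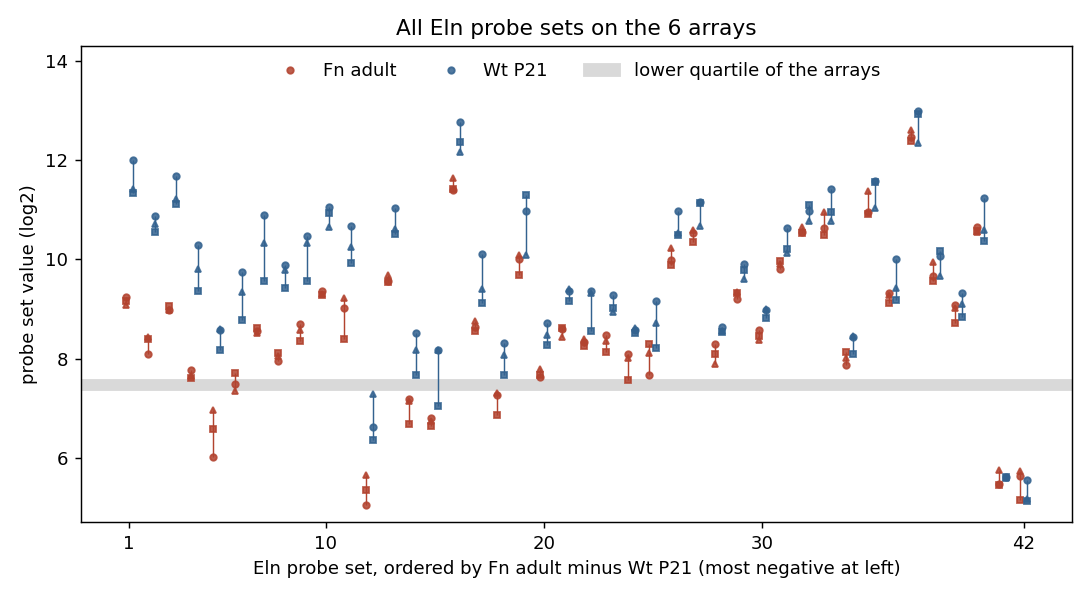
Value of each of the 42 Eln probe sets (log2, y axis) on the 3 Fn adult (left of each pair) and 3 Wt P21 arrays, ordered by difference from most negative at left (x axis, rank). Vertical lines join the arrays of a group, marker shapes are replicates, and the grey band spans the lower quartiles of the arrays, 7.36 to 7.56. The 4 probe sets at the left stand over 2 log2 units lower in Fn adult testes.

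A set of 4 Eln probe sets fell furthest, by over 2 log2 units. Probe set 4476878 had values of 9.23, 9.16 and 9.08 on the Fn adult arrays, against 12.00, 11.34 and 11.41 on the Wt P21 arrays, a difference of -2.43. Probe set 4868330 had 8.10, 8.39 and 8.43 on the Fn adult arrays, against 10.87, 10.54 and 10.72 on the Wt P21 arrays, a difference of -2.41. On both, the highest Fn adult value lay more than 2 log2 units under the lowest Wt P21 value. Probe set 4879529 had 8.97, 9.06 and 8.97 on the Fn adult arrays, against 11.67, 11.11 and 11.22 on the Wt P21 arrays, a difference of -2.33. Probe set 5509235 had 7.77, 7.61 and 7.65 on the Fn adult arrays, against 10.28, 9.37 and 9.81 on the Wt P21 arrays, a difference of -2.14. All 4 were called lower. In Wt P21 testes these probe sets lay between 9.37 and 12.00, above the median of every array.

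Beyond these, 11 Eln probe sets were lower by between 1 and 2 log2 units and 26 by less than 1. Brightness did not by itself go with a call. Among the Eln probe sets that were not called, 9 had a mean over the 6 arrays between 10.11 and 12.62, with differences of -0.86 to -0.15. The Wt P21 arrays also differed from each other in a recurring way. Replicate 1 was the highest Wt P21 array in 32 of the 42 probe sets, and replicate 2 was the lowest in 29.

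The splicing index of a probe set, its value minus the gene level on the same array, shows how the Eln probe sets stood to each other. The difference of this index, Fn adult minus Wt P21, was under -1 for 4 probe sets: 4476878 at -1.30, 4868330 at -1.27, 4879529 at -1.20 and 5509235 at -1.01. These are the probe sets that fell furthest. Relative to the gene, 4476878 lay at 0.60 in Fn adult and 1.90 in Wt P21 testes, so it stood well above the gene level in Wt P21 and nearer to it in Fn adult. Probe set 4868330 lay at -0.25 in Fn adult and 1.02 in Wt P21 testes. Probe set 4879529 lay at 0.44 in Fn adult and 1.65 in Wt P21 testes, and 5509235 at -0.88 in Fn adult and 0.13 in Wt P21 testes. By these means 4868330 and 5509235 lay below the gene level in Fn adult testes and above it in Wt P21 testes, although 5509235 was at -0.03 on Wt P21 replicate 2.

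The next 8 probe sets had index differences of -0.80 (4660299), -0.64 (5500628), -0.57 (4687458), -0.52 (4679139), -0.44 (5276322), -0.42 (4949129), -0.28 (4790395) and -0.26 (4820690). Their values were lower in Fn adult testes by more than the gene level was. Within 0.1 of 0 were 5215432 at 0.00, 5450985 at 0.02 and 5129317 at 0.06, which moved with the gene. A further 10 probe sets lay between 0.1 and 0.5: 5333691 at 0.18, 4487531 at 0.24, 4867511 at 0.26, 4584735 at 0.27, 5302045 at 0.34, 5226569 at 0.37, 4792223 and 5243623 at 0.38, and 4353720 and 4330096 at 0.46. Their values were lower by somewhat less than the gene level was.

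The largest bin, from 0.5 to 1, held 15 probe sets. They were 4453342 at 0.51, 5333420 at 0.63, 5526782 at 0.65, 4788241 at 0.67, 5421406 at 0.68, 4387933 at 0.70, 5430167 at 0.76 and 5518119 at 0.78. The others of this bin were 4400318 at 0.81, 4708913 at 0.83, 4317297 at 0.85, 5556489 at 0.87, 5601140 at 0.89, and 4800226 and 4933501 at 0.98. Their values were lower by clearly less than the gene level, which fell by 1.13 on the log2 scale. Last came 4838665 at 1.09 and 5301895 at 1.36, both dim on every array.

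With limma no index difference of the members was called, in a fit that called 16 of 207513 probe sets (0.00771%). At an unadjusted p under 0.05 there were 31 of 42 for Eln and 68 of 318 for all members, beside 9.56% of all probe sets. The 68 include those of Eln. The others were 13 of 79 for Fbn1, 7 of 70 for Fbn2, 6 of 39 for Ltbp1 and 5 of 22 for Fbln1. There were 3 of 15 for Loxl1, 2 of 25 for Fbln2, 1 of 14 for Fbln5 and 0 of 12 for Emilin1. All 42 Eln indices subtract the same gene level, so they are not independent of each other. The count called for Eln depended on the fit. It was 1 after quantile normalization (0.0135% of all probe sets called), 2 among probe sets above the median (0.0142%) and 5 with the mean as gene level (0.124%). It was 6 with a trended robust prior (0.0969%) and 8 with diffSplice of limma (0.965%). Probe set 4476878 was among those called in 5 of the settings, at -1.54 to -1.25, and 4879529 in 4, at -1.44 to -1.20. The ends at -1.54 and -1.44 are diffSplice coefficients and not the index defined above, so each range joins unlike measures. Probe sets 4868330 and 5509235 were called in 3 each. In 1 setting each, 4660299 was called at -1.03 and 5500628 at -0.87. Calls also went the other way. Probe set 5301895 was called in 2 settings, at 1.15 and 1.18. Called in 1 setting each were 4838665 at 0.90, 4317297 at 0.85 and 4800226 at 0.98. Of these, 5301895 and 4838665 were dim on every array, so a positive index there need not mean a higher probe set value. The annotation used here does not pair probe sets with exons, so their places along Eln are not given.

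**Figure D3:**
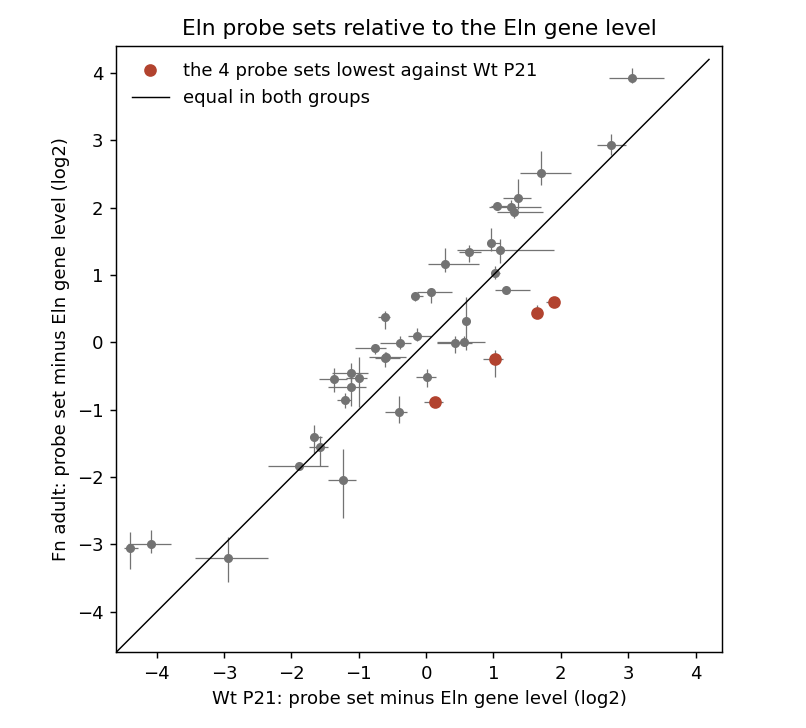
Mean splicing index (probe set value minus Eln gene level, log2) of the 42 Eln probe sets in Fn adult (y axis) and Wt P21 testes (x axis). Bars span the 3 arrays of a group, the line marks equal values, and the 4 red points are 4476878, 4868330, 4879529 and 5509235, which lie more than 1 log2 unit under the line.

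The fibrillins, which build the microfibril scaffold, were the other members with lower values on all Fn adult arrays. Fbn2, the fibrillin best known from growing and embryonic tissue, had gene levels of 8.63, 8.95 and 8.62 on the Fn adult arrays, against 9.29, 9.14 and 10.04 on the Wt P21 arrays. The means were 8.73 ± 0.19 in Fn adult and 9.49 ± 0.49 in Wt P21 testes (SD, n = 3 each), a difference of -0.76 ± 0.23 (SE), or 1.69-fold lower. Wt P21 replicate 3 stood well above the other Wt P21 arrays. Fbn2 was not called with all arrays and was called without this array, at a smaller difference of -0.48. It was also called after quantile normalization, at -0.92, and after centring, at -0.93.

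Of 70 Fbn2 probe sets, 66 were lower in Fn adult testes. The groups did not overlap in 37 (7.56% of all probe sets), and 1 was called lower (0.37% of all probe sets). Their differences had a median of -0.74. The most negative was -1.55, for 5267563, with means of 5.57 in Fn adult and 7.13 in Wt P21 testes. The most positive was 0.10, for 4740632, with means of 7.22 in Fn adult and 7.12 in Wt P21 testes. All 4 of these means lay under 7.36, although 5267563 reached 8.30 on Wt P21 replicate 3.

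Fbn1, the main fibrillin of adult tissue, had gene levels of 8.39, 8.19 and 8.06 on the Fn adult arrays, against 8.81, 8.53 and 8.65 on the Wt P21 arrays. All Fn adult values lay below all Wt P21 values. The means were 8.21 ± 0.16 in Fn adult and 8.66 ± 0.14 in Wt P21 testes (SD, n = 3 each), a difference of -0.45 ± 0.14 (SE), or 1.36-fold lower. Fbn1 was not called with the values as deposited. It was called after quantile normalization, at -0.60, after centring, at -0.61, with the mean as gene level, at -0.52, and from brighter probe sets, at -0.49.

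Among 79 Fbn1 probe sets, 76 were lower in Fn adult testes. The groups did not overlap in 43 (7.56% of all probe sets), and 9 were called lower (0.37% of all probe sets). The median was -0.47. Probe set 4741700 had the most negative difference, -1.46, with means of 5.70 in Fn adult and 7.16 in Wt P21 testes, both dim. Probe set 4791228 had the most positive, 0.11, with means of 8.33 in Fn adult and 8.23 in Wt P21 testes. Along both fibrillin genes the lower values were thus spread over most probe sets.

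The fibulins, calcium-binding glycoproteins of the matrix, did not move together. Fbln1, found in elastic fibres and basement membranes, had gene levels of 9.66, 9.71 and 9.64 on the Fn adult arrays, against 8.98, 9.07 and 8.96 on the Wt P21 arrays. Both groups were tight, and the groups were well apart. The means were 9.67 ± 0.04 in Fn adult and 9.00 ± 0.06 in Wt P21 testes (SD, n = 3 each), a difference of 0.67 ± 0.11 (SE), or 1.59-fold higher. Fbln1 was called with all arrays, but not without Fn adult replicate 1 (0.68), replicate 2 (0.65) or replicate 3 (0.69), and not after quantile normalization or centring (0.50 in each).

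All 22 Fbln1 probe sets were higher in Fn adult testes, 16 without overlap of the groups (21.4% of all probe sets), and 7 were called (3.68% of all probe sets). Their differences had a median of 0.63. They ranged between 0.08, for 5256718 with means of 8.02 in Fn adult and 7.95 in Wt P21 testes, and 1.00, for 5245665 with means of 9.14 in Fn adult and 8.15 in Wt P21 testes.

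Fbln5, which binds tropoelastin and Loxl1 and is needed for elastic fibre assembly in mice, had gene levels of 9.81, 9.86 and 9.64 on the Fn adult arrays, against 9.78, 8.84 and 9.46 on the Wt P21 arrays. The groups overlapped, and Wt P21 replicate 2 was the lowest array by a wide margin. The difference was 0.41 ± 0.22 (SE), 1.33-fold, and was not called. It was 0.15 without Wt P21 replicate 2 and 0.62 when Wt P21 replicate 1 was left out, 0.25 after quantile normalization and 0.24 after centring. All 14 probe sets had higher means in Fn adult testes. The smallest difference was 0.02 (4477789, means of 8.09 in Fn adult and 8.07 in Wt P21). The largest was 0.65 (5155771, means of 10.39 in Fn adult and 9.75 in Wt P21). The groups did not overlap for 4 of the 14, beside 21.4% of all probe sets with Fn adult higher. None of the 14 was called, with 4 at an unadjusted p under 0.05 in limma, beside 21.6% of all probe sets.

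Fbln2, which can bind both tropoelastin and fibrillin, was near the same level in both groups. It had gene levels of 8.04, 8.10 and 8.0 on the Fn adult arrays, against 8.09, 7.92 and 8.21 on the Wt P21 arrays. The difference of -0.03 ± 0.13 (SE) was smaller than its error and turned to 0.04 without Wt P21 replicate 3. Of 25 probe sets, Fn adult testes had 20 lower and 5 higher, and 8 had means under 7.36. None was called, with 2 at an unadjusted p under 0.05 in limma, beside 21.6% of all probe sets. The ends of the range were -0.61, for 4685845 with means of 6.71 in Fn adult and 7.31 in Wt P21 testes, and 0.22, for 5090597 with means of 6.63 in Fn adult and 6.41 in Wt P21 testes.

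Loxl1, a lysyl oxidase that cross-links elastin and is held at the fibre by Fbln5, had gene levels of 9.94, 10.41 and 10.35 on the Fn adult arrays, against 9.85, 9.75 and 10.07 on the Wt P21 arrays. The groups overlapped at Fn adult replicate 1 and Wt P21 replicate 3. The difference was 0.34 ± 0.16 (SE), 1.27-fold, and was not called. It was 0.19 after quantile normalization, with the mean as gene level and from brighter probe sets, and 0.17 after centring. Of 15 probe sets, Fn adult testes had 12 higher and 3 lower. None was called, with 3 at an unadjusted p under 0.05 in limma, beside 21.6% of all probe sets. The 15 differences ranged between -0.27 for 5595752, with means of 10.80 in Fn adult and 11.07 in Wt P21 testes, and 0.57 for 5278980, with means of 10.64 in Fn adult and 10.07 in Wt P21 testes.

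Ltbp1 encodes a fibrillin-like protein that binds latent TGF-beta to the matrix, and had the most positive difference of the family. Its gene level was 10.02, 10.06 and 9.49 on the Fn adult arrays, against 9.16, 8.99 and 8.57 on the Wt P21 arrays. Replicate 3 was the lowest array of each group, and the lowest Fn adult value still lay above the highest Wt P21 value. The means were 9.86 ± 0.32 in Fn adult and 8.91 ± 0.30 in Wt P21 testes (SD, n = 3 each), a difference of 0.95 ± 0.21 (SE), or 1.93-fold higher. Ltbp1 was called with all arrays, but not without Fn adult replicate 1 (0.87), Fn adult replicate 2 (0.85) or Wt P21 replicate 2 (0.99), nor after quantile normalization (0.79) or centring (0.78).

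Of 39 Ltbp1 probe sets, 38 were higher in Fn adult testes. The groups did not overlap in 33 (21.4% of all probe sets), and 16 were called higher (3.68% of all probe sets). The median was 1.01. The most positive was 1.40, for 5060762, with means of 10.15 in Fn adult and 8.75 in Wt P21 testes. The single lower one, 5547815, was at -0.07, with means of 7.21 in Fn adult and 7.28 in Wt P21 testes, both under 7.36.

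Emilin1, a glycoprotein at the border of elastin and microfibrils that restrains TGF-beta processing in mice, had gene levels of 8.07, 8.21 and 8.14 on the Fn adult arrays, against 8.49, 8.28 and 8.15 on the Wt P21 arrays. The groups overlapped narrowly, and the difference of -0.17 ± 0.13 (SE) was not called. It was -0.08 without Wt P21 replicate 1, -0.31 after quantile normalization and -0.34 after centring. Its 12 probe sets kept a narrow range, between -0.32 for 4694162, with means of 8.91 in Fn adult and 9.23 in Wt P21 testes, and 0.06 for 5353716, with means of 5.79 in Fn adult and 5.72 in Wt P21 testes. None was called, and none had an unadjusted p under 0.05 in limma (0 of 12), beside 21.6% of all probe sets.

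**Figure D4:**
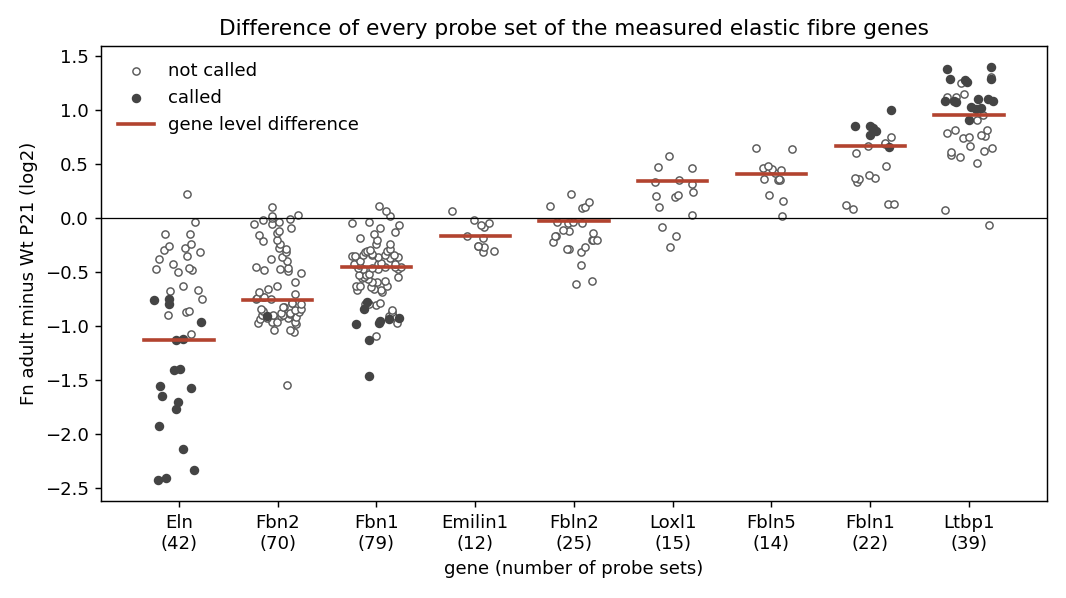
Difference of each probe set (Fn adult minus Wt P21, log2, y axis) for the 9 measured genes (x axis, number of probe sets in brackets). Filled points were called in the fit over all probe sets, and red lines are the gene level differences. Eln spreads the widest, between -2.43 and 0.22, and all Fbln1 and Fbln5 probe sets lie above 0.

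Genes that work with the elastic fibre were followed in 5 lists, 55 genes with a gene level of 58 listed. Of these, 10 were called higher and 3 lower in Fn adult testes and 42 were not called. The lists were drawn up with earlier results of these data known. Their counts are read beside the shares of all genes, 8.07% higher and 0.914% lower, as a description.

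Among 18 elastic fibre partners, other microfibril and cross-linking genes, 1 was called higher and 2 lower, with a median of -0.01. Mfap2, a small glycoprotein of the microfibril, had gene levels of 9.08, 8.78 and 9.18 on the Fn adult arrays, against 10.32, 10.06 and 9.72 on the Wt P21 arrays, a difference of -1.02 ± 0.18 (SE, limma, adjusted p = 0.0137). Mfap4, which binds tropoelastin and fibrillin, had 10.47, 10.43 and 10.46 on the Fn adult arrays, against 11.71, 11.61 and 10.94 on the Wt P21 arrays, a difference of -0.97 ± 0.20 (SE, limma, adjusted p = 0.0227). Both thus lay lower on every Fn adult array, as Eln did. The call of Mfap2 was lost without Fn adult replicate 1 (-1.06), Fn adult replicate 2 (-0.90) or Wt P21 replicate 2 (-1.01), and from brighter probe sets (-0.51). The call of Mfap4 was lost without any single array other than Wt P21 replicate 3, with differences of -0.98 to -0.82. Efemp1, a fibulin family gene, had 10.58, 10.39 and 10.63 on the Fn adult arrays, against 9.60, 9.59 and 9.25 on the Wt P21 arrays, a difference of 1.06 ± 0.14 (SE, limma, adjusted p = 0.00482). Its relative Efemp2, which mice need for elastin cross-linking, was at 0.33 ± 0.12 and not called, and is named after its value was seen.

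Of 6 genes tied to lysyl oxidase activation, 1 was called, with a list median of -0.04. This was Postn, a matrix protein that helps bring the lysyl oxidase activator Bmp1 to the matrix. It had gene levels of 7.21, 7.16 and 6.98 on the Fn adult arrays, against 8.17, 7.88 and 8.46 on the Wt P21 arrays, a difference of -1.05 ± 0.17 (SE, limma, adjusted p = 0.00847). The Fn adult values lay under the lower quartiles of the arrays. Bmp1 itself, named after its value was seen, was at 0.00 ± 0.13 and not called.

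In the TGF-beta pathway, whose ligand is held in the matrix by Ltbp1, 3 of 13 genes were called higher and none lower, with a median of 0.30. Smad3, which carries the signal to the nucleus, was higher by 0.89 ± 0.18 (SE, limma, adjusted p = 0.0197). The co-receptor Tgfbr3 was higher by 0.69 ± 0.14 (adjusted p = 0.0189), and the ligand Tgfb1 by 0.56 ± 0.12 (adjusted p = 0.0274). The call of Smad3 was lost without Fn adult replicate 1 (0.72), Fn adult replicate 3 (0.96) or Wt P21 replicate 2 (0.84), and that of Tgfbr3 without Fn adult replicate 1 (0.64), 2 (0.74) or 3 (0.71). Tgfb1 lost its call after quantile normalization (0.43), after centring (0.40), with a replicate block (0.56), and without Fn adult replicate 1 (0.51), 2 (0.57) or 3 (0.61) or Wt P21 replicate 2 (0.55).

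Among 11 elastin-degrading proteases and their inhibitors, 3 were called higher and none lower, with a median of 0.34. The called genes were 2 inhibitors and 1 membrane protease. Timp1, an inhibitor of matrix metalloproteases, had gene levels of 10.31, 10.05 and 10.26 on the Fn adult arrays, against 8.48, 8.84 and 8.54 on the Wt P21 arrays, a difference of 1.58 ± 0.15 (SE, limma, adjusted p = 0.000721). Timp2 was higher by 1.09 ± 0.16 (adjusted p = 0.00626) and Mmp14, which works with Timp2 at the cell surface, by 0.77 ± 0.17 (adjusted p = 0.0282). Mmp14 lost its call after centring (0.60) and without Fn adult replicate 1 (0.73), 2 (0.77) or 3 (0.79) or Wt P21 replicate 2 (0.63). The elastase gene Mmp12 was dim on all arrays, at 5.99, 5.86 and 5.43 on the Fn adult arrays and 5.73, 5.89 and 5.61 on the Wt P21 arrays, and was picked for mention after its values were seen.

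Of 7 genes of elastin receptors, 3 were called higher and none lower, with a median of 0.55. Itgb5 and Itgav, which pair as an integrin, were higher by 1.16 ± 0.16 (SE, limma, adjusted p = 0.00482) and 0.68 ± 0.15 (adjusted p = 0.0266). Glb1, whose splice variant is the elastin-binding protein, was higher by 0.65 ± 0.17 (adjusted p = 0.0481). Itgav lost its call after quantile normalization (0.52), after centring (0.51), and without Fn adult replicate 1 (0.62), 2 (0.70) or 3 (0.71) or Wt P21 replicate 2 (0.58). Glb1 lost its call after centring (0.49), with a replicate block (0.65), and without Fn adult replicate 1 (0.65), 2 (0.63) or 3 (0.68) or Wt P21 replicate 1 (0.65) or 2 (0.50). Of the 13 genes called over the 5 lists, Efemp1, Postn, Timp1, Timp2 and Itgb5 stayed called in every alternative setting that gave them a value, and the other 8 lost the call in at least 3.

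**Figure D5:**
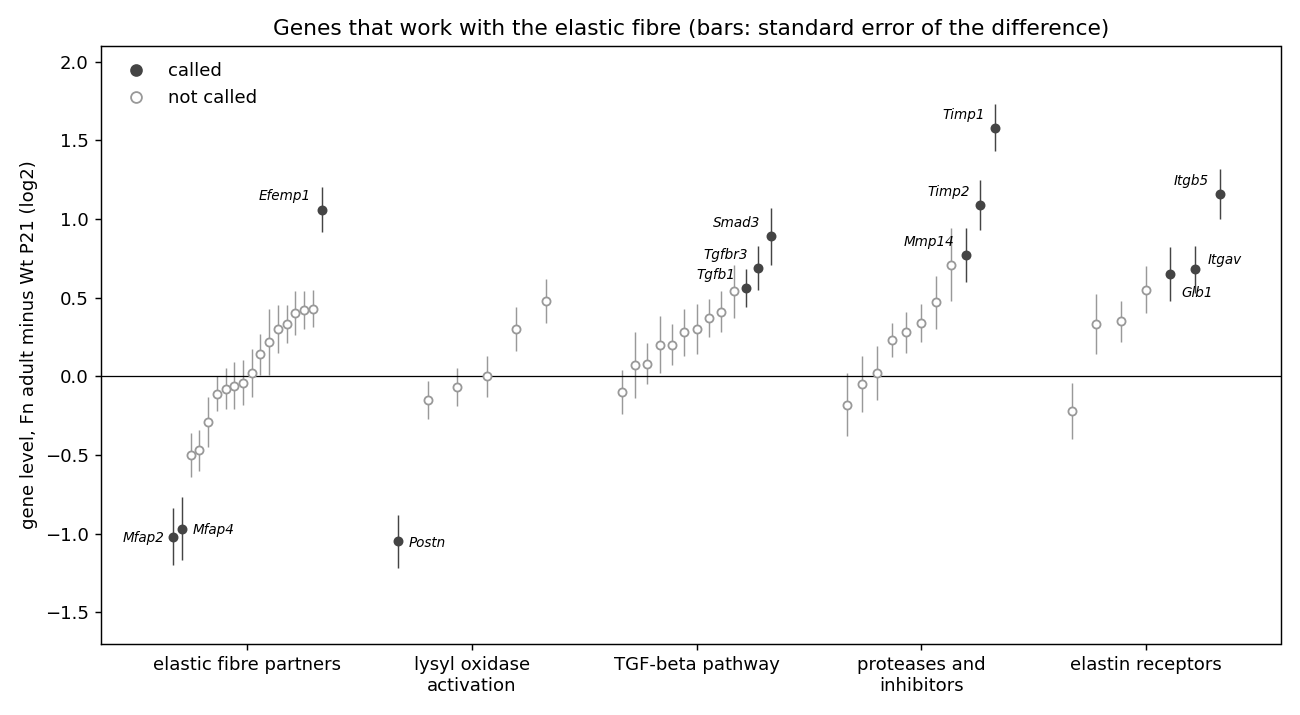
Gene level difference (Fn adult minus Wt P21, log2, y axis) of the 55 measured genes in the 5 lists (x axis), in rising order within each list. Bars are standard errors of the difference, filled points were called, and called genes are named. Mfap2, Mfap4 and Postn are the called genes below 0, and Timp1 at 1.58 is the highest.

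Marker genes of the cell types that could make or surround elastic fibres were read beside these values. None of 10 peritubular myoid and smooth muscle markers was called, and 1 had an unadjusted p under 0.05 in limma, beside 26.6% of all genes. They had a median of 0.05 and a summed level (each gene level taken off the log2 scale) of 15100 to 16200 on Fn adult arrays and 12500 to 17300 on Wt P21 arrays. The largest differences in this list were 0.40 ± 0.13 for Des, a muscle filament gene, and -0.36 ± 0.20 for Cnn1, a smooth muscle gene. The summed level of this list thus overlapped between the groups. Such a sum, here and for the lists below, weighs the brightest genes most. In this list these were Acta2 and Myl9, with means of 12.45 and 12.40 in Fn adult testes.

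None of 7 fibroblast markers was called, and 4 had an unadjusted p under 0.05 in limma, beside 26.6% of all genes. Their median was -0.46, 6 of 7 had lower values in Fn adult testes, and the summed level was 4340 to 4800 on Fn adult arrays and 4880 to 7280 on Wt P21 arrays. The fibrillar collagen genes Col1a1 and Col3a1 were at -0.74 ± 0.20 and -0.55 ± 0.20. Col1a1 had 9.19, 9.33 and 9.14 on the Fn adult arrays, against 10.41, 9.65 and 9.81 on the Wt P21 arrays, highest on Wt P21 replicate 1 as was Eln. The 1 marker with a higher value was Pdgfra at 0.41 ± 0.18, which was not called and whose groups did not overlap. It is named after its value was seen. The fibroblast sum did not overlap between the groups and lay lower in Fn adult testes, as Eln did. Its part in the lower Eln level was not tested.

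None of 9 endothelial markers was called, and 2 had an unadjusted p under 0.05 in limma, beside 26.6% of all genes. These were Vwf at 0.40 ± 0.13 and Tek at 0.42 ± 0.16. The list had a median of 0.17 and a summed level of 3370 to 3710 on Fn adult arrays and 3050 to 3350 on Wt P21 arrays. The endothelial sum thus did not overlap either, but lay higher in Fn adult testes, unlike Eln. Its part in the Eln level was not tested. All 7 measured Leydig cell markers were called higher (8.07% of all genes), with a median of 1.68. Their summed level was 41200 to 47200 on Fn adult arrays and 13600 to 17800 on Wt P21 arrays. The largest were Ptgds at 3.85 ± 0.17, Hsd17b3 at 2.84 ± 0.19, Star at 2.11 ± 0.30 and Cyp11a1 at 1.68 ± 0.20. All 8 macrophage markers were called higher as well (8.07% of all genes), with a median of 0.85. Their summed level was 6420 to 6520 on Fn adult arrays and 2990 to 3460 on Wt P21 arrays. The largest were Lyz2 at 1.32 ± 0.13, Mrc1 at 1.15 ± 0.15, Ptprc at 0.93 ± 0.14 and Cd68 at 0.89 ± 0.18. These rises went with the higher Fbln1, Ltbp1, Timp1 and Itgb5 levels, and their part in those was not tested.

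Of 9 Sertoli cell markers 3 were called higher (8.07% of all genes) and 1 lower (0.914% of all genes), with a median of 0.32. Their summed level was 24900 to 25900 on Fn adult arrays and 16200 to 21800 on Wt P21 arrays. The called ones were Trf at 1.08 ± 0.18, Clu at 0.63 ± 0.15, Gata4 at 0.58 ± 0.15 and Amh, a marker of immature Sertoli cells, at -0.68 ± 0.15. Of 10 germ cell markers 2 were called lower (0.914% of all genes), Ybx2 at -0.59 ± 0.14 and Piwil1 at -0.50 ± 0.13. The list median was 0, and the summed level was 23500 to 25100 on Fn adult arrays and 24800 to 28700 on Wt P21 arrays. The germ cell sums overlapped between the groups. Of the 10 markers, 5 had higher and 5 had lower values in Fn adult testes. The largest differences were those of Prm1 at 1.09 ± 0.36 and Acrv1 at 1.01 ± 0.54, both named after their values were seen. Neither was called. The groups did not overlap for Prm1. Acrv1 overlapped, with 7.16, 7.44 and 9.58 on the Wt P21 arrays.

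Across all genes, the patterns over the 6 arrays nearest to that of Eln were found by the root mean square distance between gene levels, each centred on its own mean. The nearest were Srd5a1, a steroid-reducing enzyme, at 0.125 log2 units, Myl6b, a myosin light chain, at 0.201, Ahsg, a serum glycoprotein, at 0.205, Ppp2r2c, a phosphatase subunit, at 0.208 and Mfap2 at 0.208. Srd5a1 had 8.83, 8.97 and 8.80 on the Fn adult arrays, against 10.24, 9.89 and 9.84 on the Wt P21 arrays. Like Eln, it was highest on Wt P21 replicate 1. Mfap2 was the only gene of the elastic fibre among the 5. By the same distance Fbn1 came 107th at 0.365 and Fbn2 225th at 0.405 of all genes, while Ltbp1 came 14835th.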

How the data were processed

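Total RNA of 3 Fn adult and 3 Wt P21 testes was extracted with Trizol, amplified and biotin-labelled for exon arrays. The labels call the arrays of a group biological replicates. The authors deposited log2 values of 229581 probe sets for each array. Their exon arrays went through EASANA (GenoSplice Technology), and genome build mm8 comes from the submitters' processing notes. The background correction and normalization behind the values are not given in the sources used here. For arrays, their number limits the precision.

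Probe sets were named from the platform annotation, with symbols updated through RefSeq genes of GRCm38.p6. Of the probe sets, 209279 carried 1 symbol, 4446 several and 15856 none. Of 16380 symbols, 14190 were current, 2145 were updated and 45 were not matched. Dazap1 had no probe set with its symbol alone, so the genotype labels were not checked against the mutated gene. The gene level was the median over at least 3 probe sets. Values were used as deposited.

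Differences were fitted over all genes, all probe sets and all splicing indices by limma 3.58.1 (lmFit, eBayes), run under R 4.3.3 with statmod 1.5.0 and version 1.17.8 of data.table. Tests were two-sided, p was adjusted by Benjamini-Hochberg, and the threshold was 0.05. Scripts were tested on simulated data. Alternatives were quantile normalization, median centring, the mean as gene level, brighter probe sets only, a trended robust prior, a replicate block, diffSplice and leaving out each array.

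The members and lists were chosen with earlier results of these data known. Named were all members, every Eln probe set, the probe sets with the largest and smallest difference of each other member, of each list up to 4 called genes with the largest difference, or 2 where none was called, and the 5 genes nearest to Eln in pattern. Ddx4, Efemp2, Bmp1, Mmp12, Pdgfra, Prm1 and Acrv1 stand outside this rule. Promoter windows were scanned for CAGAC on both strands.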

Additional observations from a re-analysis of the deposited data

How the results depend on the processing

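The Eln gene level stayed called lower in all 12 alternative settings, at -1.30 to -0.93. The number of Eln probe sets called lower, 18, was 7 to 19 with 1 array left out. It was 9 from brighter probe sets only, where the dimmer Eln probe sets were left out of the fit. That count is therefore over fewer Eln probe sets. Calls over all genes moved too, to 826 higher and 452 lower after quantile normalization, 702 and 629 after centring and 1999 and 229 with the mean of probe sets. The 2 members called higher became 0 after quantile normalization, 0 after centring and 0 to 2 with 1 array left out. The 1 member called lower became 3 after quantile normalization, 3 after centring, 2 with the mean of probe sets, 2 from brighter probe sets and 1 to 2 with 1 array left out. No splicing index of the members was called as deposited. The count for Eln and for all members was 1 and 1 after quantile normalization, 5 and 6 with the mean of probe sets, 6 and 6 with the trended robust prior, 2 and 2 above the median probe set, and 8 and 10 with diffSplice. Over the 5 lists, the 10 genes called higher became 21 with the mean of probe sets and 4 to 12 with 1 array left out. The 3 called lower became 5 after quantile normalization, 5 after centring, 5 with the mean of probe sets, 1 from brighter probe sets and 1 to 4 with 1 array left out. The Fbln2 difference of -0.03 lay between -0.10 and 0.04 with 1 array left out, positive only without Wt P21 replicate 3. The causes were not tested. Of 263 alternative values for single genes, 205 kept their direction and their side of the threshold, 50 lost a call, 7 gained one and 1 turned. Postn had no value from brighter probe sets.

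Arrays of the same replicate number deviated together with correlations of 0.24, -0.11 and -0.02. For arrays of different numbers the correlations lay between -0.20 and 0.22. So few values cannot show whether arrays of a number were handled together, and the main fit did not pair them. A replicate block cannot move a difference here, since each number holds 1 array of each group, so Eln is at -1.13 by design. Only the p could change. With the block, 14 Eln probe sets were called lower, and of the members 2 were called higher and 1 lower. Among all genes 890 were called higher and 126 lower, against 1227 and 139 without the block. With 3 arrays a group, a background that is not stated and dim probe sets near the floor, folds are as measured and small differences could not be resolved.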
